A study of Sus scrofa with 12 samples.

Results

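The 10 genes described here carry out the making, uptake, breakdown and sensing of prostaglandins in the ovary of the sow. They were the 2 cyclooxygenases PTGS1 and PTGS2, the 3 prostaglandin E synthases PTGES, PTGES2 and PTGES3, the uptake carrier SLCO2A1, the breakdown enzyme HPGD and the receptors PTGFR, PTGER2 and PTGER4. They were chosen by symbol, and each of them matched 1 of the 29884 rows of the deposited gene table. RNA freed of ribosomal RNA was sequenced from whole left ovaries of commercial sows, taken 4 days after the 4th delivery. The study asked which ovarian RNAs go with litter size, so ovaries of a small litter size group (SLS, 8.48 ± 0.53 piglets per litter) were compared with those of a large litter size group (LLS, 16.19 ± 0.43 piglets per litter; the study states in general that its results are mean ± SEM). The SLS ovaries were ZD2, ZD3 and ZD12 and the LLS ovaries ZD5, ZD7 and ZD8, replicates 1 to 3 of each group in this order. Only left ovaries were taken, so each stands for 1 sow, with 1 column of values in the gene table and 1 in the miRNA table. The groups were set by litter size, and no treatment, breed or genotype of the sows is given in the sources used here. All the sows came from 1 commercial piggery.

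Prostaglandins are short-lived lipid signals. A phospholipase frees arachidonic acid from membranes, a cyclooxygenase turns it into prostaglandin H, and terminal synthases turn that into prostaglandin E, F, D or I, which leave the cell, act on receptors at the surface of neighbouring cells, and are taken up again and oxidised. In the ovary, prostaglandin E made by granulosa cells serves ovulation, while prostaglandin F acting on luteal cells brings about the regression of the corpus luteum, the gland that forms from the ruptured follicle and makes progesterone.

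The gene libraries held 32272803 to 60903268 reads, the fewest in ZD8. ZD8 stood apart from the other ovaries in its cell markers as well. The luteal markers STAR, CYP11A1, HSD3B1, SCARB1, LHCGR and PRLR summed to 107 FPKM (fragments scaled to transcript length and library size) in ZD8 and to 9091 to 12043 FPKM in the other 5 ovaries, with 5 of the 6 markers lowest in ZD8 and PRLR, at up to 1.16 FPKM, highest. The theca markers CYP17A1 and INSL3 summed to 415 FPKM in ZD8 against 9.31 to 74.4 FPKM, and 7 of the 7 oocyte markers in the table were highest in ZD8 (summed level 123 FPKM against 6.29 to 22.5 FPKM). Endothelial markers summed to 115 FPKM in ZD8 against 244 to 371 FPKM, with 4 of 5 lowest there. The sums for mast cells (29.2 against 75.4 to 180 FPKM) and red blood cells (28.8 against 53.4 to 318 FPKM) were also lowest in ZD8. That for stroma was too (3373 against 3768 to 9586 FPKM). Of these markers, 1 of 3, 2 of 2 and 3 of 6 were lowest there, and 1 mast cell and 2 stroma markers were highest. CYP19A1, the aromatase of granulosa cells, was under 0.1 FPKM in all the ovaries. Fold changes that ZD8 moves strongly are given with and without it. In RNA from a whole ovary, fewer cells of a type and less RNA per cell cannot be told apart.

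The levels of the members ran from 0.332 to 1469 FPKM. PTGES was the highest and PTGFR the next in each ovary but ZD8, and SLCO2A1, PTGES3 and PTGES2 followed. The lower 5 members, PTGS1, PTGS2, HPGD, PTGER2 and PTGER4, were between 0.332 and 1.81 FPKM in all 6 ovaries. PTGES3 and SLCO2A1 changed places between ovaries, as did the lower 5, so that neither set has an order beyond its spread. In ZD8 the order of the upper members was PTGES3, PTGFR, PTGES, SLCO2A1 and PTGES2.

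**Figure D1:**
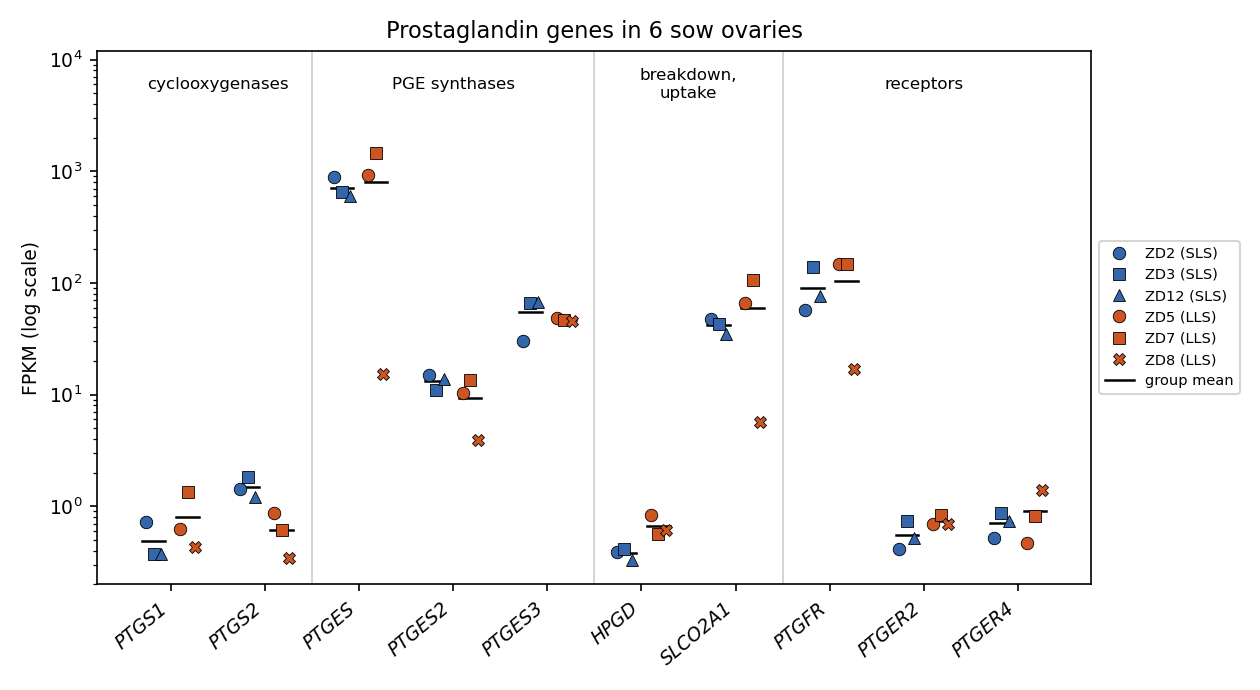
FPKM of the 10 members on a log axis, with 1 point per ovary (blue for SLS, orange for LLS, crosses for ZD8) and a black line at each group mean. PTGES, PTGFR and SLCO2A1 lie far lower in ZD8 (15.3, 17.0 and 5.70 FPKM) than in any other ovary, PTGS2 is lower in each LLS ovary than in each SLS ovary, and HPGD is higher.

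The cyclooxygenase step was expressed weakly. PTGS2, the inducible cyclooxygenase, which the surge of luteinising hormone switches on in follicles, was at 1.44 FPKM in ZD2, 1.81 in ZD3 and 1.21 in ZD12, and at 0.870 in ZD5, 0.609 in ZD7 and 0.343 in ZD8. Each LLS ovary was thus below each SLS ovary. The group means were 1.49 ± 0.304 FPKM in SLS and 0.607 ± 0.263 FPKM in LLS (SD, n = 3 each), a ratio of 2.45. These values rested on 232 to 339 reads in SLS and 40 to 181 reads in LLS, and the 95% Poisson intervals of the lowest SLS ovary (1.06 to 1.38 FPKM in ZD12) and the highest LLS ovary (0.748 to 1.01 FPKM in ZD5) did not meet. Intervals of this kind cover counting error only.

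The difference in PTGS2 did not pass the test over all genes. limma on log2(FPKM + 1) gave a log2 fold change of -0.64 with an SE of 0.28 and a 95% interval of -1.28 to 0.00. The p was 0.0503 in limma, its Benjamini-Hochberg adjusted value over 12260 tested genes was 0.999, and the exact two-sided permutation test gave p = 0.1, the smallest that 3 ovaries against 3 allow. On whole reads recovered from the FPKM values, DESeq2 put the log2 fold change at -1.25 (SE 0.54, adjusted p = 1) and edgeR at -1.24 (adjusted p = 1), both with an unadjusted value under 0.05. A fold change on the log2(FPKM + 1) scale understates that of a gene this low. PTGS2 entered the test only through the 3 SLS ovaries, since no LLS ovary reached the 1 FPKM that the filter asked for in 3 libraries.

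Without ZD8, the limma log2 fold change of PTGS2 was -0.51 (adjusted p = 0.9). ZD8 held the lowest PTGS2 level of the 6 and the fewest reads on it. The 6 markers of granulosa cells, in which follicles make PTGS2, summed to 387 to 772 FPKM in SLS and 130 to 300 FPKM in LLS, also without overlap between the groups. INHA, the inhibin subunit, was the largest term of that sum in each ovary (376 to 726 FPKM in SLS, 66.4 to 285 FPKM in LLS, with 66.4 of 130 FPKM in ZD8), while the other markers overlapped or, for CYP19A1, were near 0, and FSHR, AMH and FOXL2 were highest in ZD8. The part of granulosa cells in the PTGS2 level was not tested.

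PTGS1, the cyclooxygenase that most cells hold at a steady level, showed another order. It was at 0.723 FPKM in ZD2, 0.371 in ZD3 and 0.370 in ZD12, and at 0.621 in ZD5, 1.33 in ZD7 and 0.431 in ZD8. The groups overlapped, and ZD7 alone exceeded 1 FPKM, so that PTGS1 was not among the genes tested. The group means of 0.488 ± 0.204 FPKM in SLS and 0.794 ± 0.473 FPKM in LLS (SD, n = 3 each) were not set apart by the exact permutation test (p = 0.5). The difference of mean log2(FPKM + 1) was 0.25, and 0.042 without ZD7.

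Which cyclooxygenase was the more abundant differed between ovaries. The ratio of PTGS2 to PTGS1 was 1.99, 4.89 and 3.28 in ZD2, ZD3 and ZD12, and 1.40, 0.458 and 0.795 in ZD5, ZD7 and ZD8. PTGS2 exceeded PTGS1 in each SLS ovary and in ZD5, while PTGS1 exceeded PTGS2 in ZD7 and ZD8. The sum of both was 1.58 to 2.19 FPKM in SLS and 0.775 to 1.94 FPKM in LLS, with overlap.

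**Figure D2:**
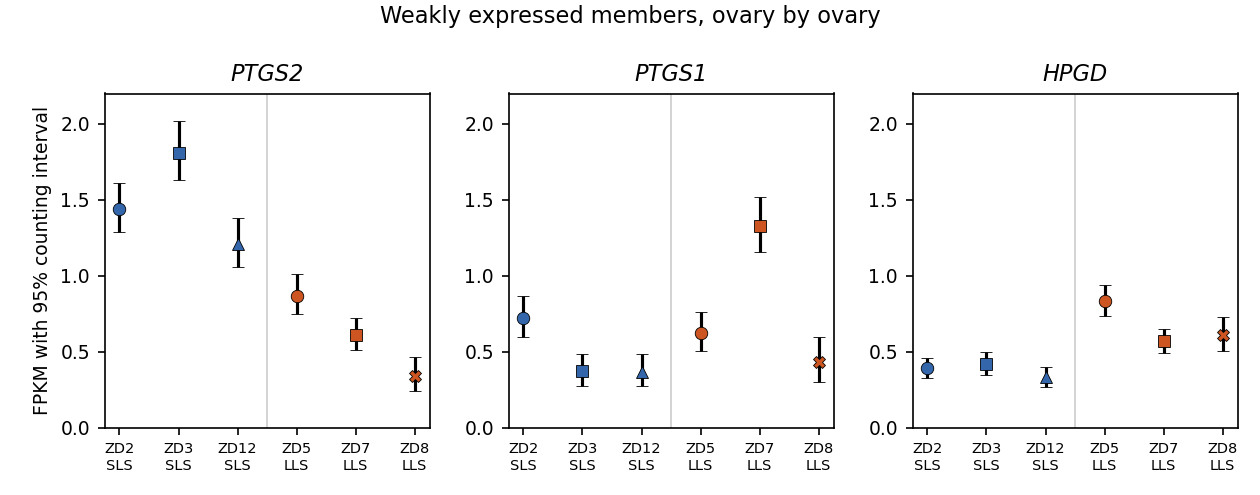
FPKM of PTGS2, PTGS1 and HPGD in each ovary, on linear axes that start at 0, with 95% Poisson intervals from the recovered reads as black bars (counting error only). The 3 LLS ovaries lie below the 3 SLS ovaries for PTGS2 and above them for HPGD, and the groups overlap for PTGS1.

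The promoter of PTGS2 is shown because the E-box next to its start is a known control element of this gene in granulosa cells of rodents. It is given 5′ to 3′ on the minus strand from chr9:127858817-127859116 of Sscrofa11.1 (RefSeq annotation), from 250 bases before the annotated start to 50 bases of transcript, with motif matches in capitals.
PTGS2: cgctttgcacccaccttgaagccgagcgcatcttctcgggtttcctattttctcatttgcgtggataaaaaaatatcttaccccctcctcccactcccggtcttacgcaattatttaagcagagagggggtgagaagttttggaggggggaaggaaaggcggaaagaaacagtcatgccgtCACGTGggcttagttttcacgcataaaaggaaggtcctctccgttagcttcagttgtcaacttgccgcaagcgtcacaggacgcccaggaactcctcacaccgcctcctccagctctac
The window held 1 E-box, CACGTG, which 7.65% of 20622 promoters of the same length also held. It lay 69 to 64 bases before the annotated start. The other motifs searched were the GC box GGGCGG, the TATA box TATAAA, the cAMP response element TGACGTCA and the element AAGGTCA of the steroidogenic factor NR5A1, on both strands. None of these letters stood in the PTGS2 window, and a match or its absence is a description, not a site. PTGS2 itself lies at chr9:127850164-127858866 with 10 exons. Its exons share 108 bases with PLA2G4A on the opposite strand, which is 2.99% of the exon bases of PTGS2. Whether reads were counted by strand is not given in the sources used here, so reads there cannot be told apart.

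The miRNA table, whose columns carry the names of the same ovaries, allowed a look at miRNAs known from other species to act on PTGS2. The 5 miRNAs are shown with the seed, bases 2 to 8, in capitals, as the deposited table gives them.
ssc-miR-101: tACAGTACtgtgataactgaa
ssc-miR-26a: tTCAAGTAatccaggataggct
ssc-miR-26b-5p: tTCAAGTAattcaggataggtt
ssc-miR-199a-3p: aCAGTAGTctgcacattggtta
ssc-miR-16: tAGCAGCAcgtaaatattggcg
The miR-26 pair shares 1 seed, and the other 3 seeds differ. The annotated 3′ UTR of PTGS2 has 1678 nt, and it held 1 match to the seed of miR-101 and 1 to that of miR-26. The stretches of 30 bases around these matches are shown with the bases that pair with the seed in capitals.
PTGS2 seed match of miR-101: gacattttctgGTACTGTatattaatttat
PTGS2 seed match of miR-26: tgacatcttttTACTTGAatttcaacttat
The first match, GTACTGT, lies at chr9:127850853-127850859, bases 983 to 989 of the UTR. The second, TACTTGA, lies at chr9:127851608-127851614, bases 228 to 234, and both are followed by an A. Among 5963 annotated 3′ UTRs of at least this length, cut to it, 9.24% held the first and 11.1% the second. The letters that pair with miR-16 (TGCTGCT, in 24.9% of those UTRs) and with miR-199a-3p (ACTACTG, in 7.63%) were not in the UTR of PTGS2.

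None of these miRNAs differed between the groups beyond the spread of the ovaries. miR-101 was at 4363, 5723 and 8091 RPM (reads scaled to the size of the library) in ZD2, ZD3 and ZD12 and at 6552, 3768 and 11892 RPM in ZD5, ZD7 and ZD8. miR-26a was the most abundant of the 5, at 75829, 107840 and 207172 RPM in SLS and 102057, 93190 and 252876 RPM in LLS. miR-26b-5p was at 5031 to 17446 RPM in SLS and 6080 to 23475 RPM in LLS. miR-199a-3p was at 14244 to 48341 RPM in SLS and 15201 to 49346 RPM in LLS. These 4 were highest in ZD8, which held the least PTGS2, while ZD7, with the next lowest PTGS2, held the least miR-101 of all the ovaries. miR-16 was at 805 to 989 RPM in SLS and 650 to 1251 RPM in LLS. The log2 fold changes in limma ran from -0.13 for miR-16 to 0.18 for miR-101, with SEs of 0.38 to 0.64, and the adjusted p was 0.997 for each of them. Without ZD8 they were -0.24 for miR-101, -0.29 for miR-26a, -0.48 for miR-26b-5p, -0.28 for miR-199a-3p and -0.01 for miR-16, so that the first 4 turned in direction. Of all 353 miRNAs tested, 0 were called (0%), with 0 at an unadjusted p under 0.05 in limma and 4 in edgeR.

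PTGES, the inducible synthase that turns prostaglandin H into prostaglandin E, was among the most abundant transcripts of 5 ovaries. It was at 881 FPKM in ZD2, 658 in ZD3 and 597 in ZD12, and at 935 in ZD5, 1469 in ZD7 and 15.3 in ZD8. Its rank among all the genes was 42, 44, 84, 29 and 20 in the first 5 of these and 4435 in ZD8. ZD5 and ZD7 were above each SLS ovary, and ZD8 was 38.9 times below the lowest of the other 5. The value in ZD8 rested on 581 reads, beside 37059 to 105009 reads in the others.

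The groups as a whole did not differ in PTGES beyond their spread. The means were 712 ± 150 FPKM in SLS and 806 ± 735 FPKM in LLS (SD, n = 3 each). limma gave a log2 fold change of -1.32 with an SE of 1.50 and a 95% interval from -4.76 to 2.12 (adjusted p = 0.999; exact permutation p = 1). Without ZD8 the direction turned, to 0.74 with an SE of 0.36 (limma, p = 0.0691, adjusted p = 0.927), and with 2 LLS ovaries the exact permutation test gave p = 0.2. With all ovaries kept, DESeq2 and edgeR on recovered reads each gave 0.27, so the sign also depended on the test.

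The other PGE synthases were far below PTGES in the other 5 ovaries. PTGES2, a membrane-bound form whose role in making prostaglandin E is debated, was at 14.9, 11.1 and 13.8 FPKM in ZD2, ZD3 and ZD12 and at 10.3, 13.5 and 3.89 FPKM in ZD5, ZD7 and ZD8. PTGES3, which is also the HSP90 co-chaperone p23, was at 30.5, 66.6 and 67.0 FPKM in the SLS ovaries and at 48.9, 46.2 and 45.8 FPKM in the LLS ovaries. For PTGES3 the SLS ovary ZD2 stood lowest, and ZD8 lay next to the other LLS ovaries. The log2 fold changes were -0.61 (SE 0.41, interval -1.56 to 0.34) for PTGES2 and -0.13 (SE 0.35, interval -0.94 to 0.68) for PTGES3, both at an adjusted p of 0.999 in limma. Without ZD8, that of PTGES2 was -0.15.

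PTGES made up most of the PGE synthase transcript per length. Its share of the summed FPKM of the 3 synthases was 95.1, 89.4 and 88.1% in ZD2, ZD3 and ZD12 and 94.0, 96.1 and 23.6% in ZD5, ZD7 and ZD8. In ZD8 PTGES3 held the largest share, 70.4%. PTGES stood at 301 to 758 times the summed cyclooxygenases in the other 5 ovaries and at 19.8 times in ZD8.

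SLCO2A1, the carrier that takes prostaglandins into cells, went the same way as PTGES in these ovaries. It was at 47.1 FPKM in ZD2, 43.3 in ZD3 and 34.6 in ZD12, and at 65.7 in ZD5, 106 in ZD7 and 5.70 in ZD8. ZD5 and ZD7 were again above each SLS ovary, and ZD8 was 6.08 times below the lowest of the other 5. The means were 41.7 ± 6.38 FPKM in SLS and 59.2 ± 50.5 FPKM in LLS (SD, n = 3 each), and limma gave -0.22 (SE 0.90, interval -2.28 to 1.84, adjusted p = 0.999). DESeq2 and edgeR on recovered reads each gave 0.59 with all ovaries kept. Without ZD8 the limma log2 fold change was 1.0 (SE 0.28, interval 0.37 to 1.63). The adjusted p of 0.335 in that limma fit did not pass, and it was the smallest of the 6 tested members. The exact permutation test gave p = 0.2, the smallest that 2 ovaries against 3 allow.

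Endothelial cells are a known site of SLCO2A1. Per 100 FPKM of summed endothelial markers (PECAM1, CDH5, VWF, TEK and KDR) SLCO2A1 was at 15.2, 13.7 and 14.2 in SLS and at 25.5, 28.6 and 4.94 in ZD5, ZD7 and ZD8. The ratio was thus steady in SLS, higher in ZD5 and ZD7, and lowest in ZD8. The part of endothelial cells in the level was not tested.

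HPGD, which inactivates prostaglandins by oxidising them after uptake, was low in all ovaries. It was at 0.391 FPKM in ZD2, 0.417 in ZD3 and 0.332 in ZD12, and at 0.833 in ZD5, 0.568 in ZD7 and 0.609 in ZD8. Each LLS ovary was above each SLS ovary, ZD8 included. The means were 0.380 ± 0.0436 FPKM in SLS and 0.670 ± 0.143 FPKM in LLS (SD, n = 3 each), a ratio of 1.76, on at most 276 reads per ovary. No ovary reached 1 FPKM, so HPGD was not in the main test. In the limma fit with no filter its log2 fold change was 0.27 (SE 0.12, p = 0.0588, adjusted p = 0.993), and the exact permutation p was 0.1, the smallest possible. As for PTGS2, this scale understates the change of a gene so low, and with a pseudocount of 0.1 the difference of means was 0.67.

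The 95% Poisson intervals of HPGD in the lowest LLS ovary (0.492 to 0.653 FPKM in ZD7) and the highest SLS ovary (0.347 to 0.497 FPKM in ZD3) met at their edges. The exons of HPGD share 60 bases (0.787%) with LOC110256674 on the same strand, which was at up to 0.114 FPKM. The ratio of PTGS2 to HPGD, chosen after the values of both were seen, was 3.68, 4.35 and 3.66 in SLS and 1.04, 1.07 and 0.563 in LLS. It is a description of the 2 genes that did not overlap between the groups, and it adds nothing to them.

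Over the 10 members, 1 (HPGD) was higher and 1 (PTGS2) lower in LLS without overlap between the groups. Among the 16833 genes above 0 in all ovaries, 2.45% were higher and 2.77% lower in this way, so that 1 member of 10 in a direction is a small count to read against these shares. With ZD8 left aside, ZD5 and ZD7 exceeded each SLS ovary for 4 of 10 members (PTGES, HPGD, PTGFR and SLCO2A1) and were below each for 1 (PTGS2), beside 7.21% and 12.7% of the same genes. ZD8 was itself the lowest for PTGES, PTGFR and SLCO2A1, and PTGES and SLCO2A1 ranked the ovaries alike. The 4 of 10 is thus a description and no test. By the threshold of an adjusted p under 0.05 and a log2 fold change over 1 in either direction, limma called 0 of the 12260 tested genes (0%), with 216 at an unadjusted p under 0.05 and none of the 6 tested members among them. Without ZD8 it called 21 genes (0.171%), again with 0 members. Those calls compare 3 ovaries with 2.

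**Figure D3:**
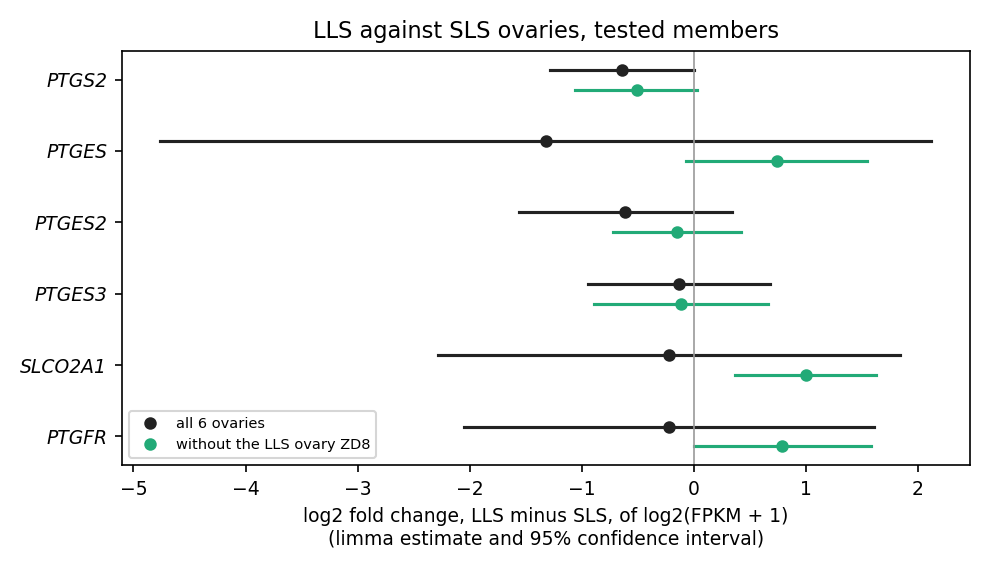
log2 fold change (LLS minus SLS, of log2(FPKM + 1)) and 95% confidence interval in limma for the 6 tested members, with all ovaries in black and without ZD8 in green. PTGES, SLCO2A1 and PTGFR move from -1.32, -0.22 and -0.22 to 0.74, 1.0 and 0.79 when ZD8 is left out, while PTGS2 moves from -0.64 to -0.51.

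The receptor for prostaglandin F, PTGFR, which couples to calcium release and is known from luteal cells, was the most abundant receptor. It was at 57.8 FPKM in ZD2, 138 in ZD3 and 76.2 in ZD12, and at 148 in ZD5, 148 in ZD7 and 17.0 in ZD8. ZD3 came close to ZD5 and ZD7, so that the SLS ovaries themselves spread widely, and ZD8 was 3.39 times below the lowest other ovary. The means were 90.8 ± 42.2 FPKM in SLS and 104 ± 75.5 FPKM in LLS (SD, n = 3 each). limma gave -0.22 (SE 0.80, interval -2.05 to 1.61, adjusted p = 0.999) and, without ZD8, 0.79 (SE 0.35, adjusted p = 0.846). The direction also turned in DESeq2 and edgeR with all ovaries kept (0.28 each) and in limma without ZD3 (0.13).

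The receptors for prostaglandin E, which raise cyclic AMP, were near the limit of what the filter kept. PTGER2 was at 0.415, 0.732 and 0.525 FPKM in ZD2, ZD3 and ZD12 and at 0.695, 0.836 and 0.692 FPKM in ZD5, ZD7 and ZD8. PTGER4 was at 0.520, 0.862 and 0.731 FPKM in SLS and at 0.470, 0.822 and 1.41 FPKM in LLS. The groups overlapped for both (exact permutation p = 0.3 and 0.7), and neither was in the main test. PTGER4 was the only member that was highest in ZD8. The exons of PTGER2 share 125 bases (2.07%) with PTGDR on the same strand, and PTGDR was at most 0.422 FPKM.

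Among the 3 receptors, PTGFR held 98.4 to 99.2% of the summed FPKM in the other 5 ovaries and 89.0% in ZD8. PTGFR was 111, 161 and 104 times as high as PTGER4 in SLS. In LLS the ratio was 314 in ZD5, 180 in ZD7 and 12.1 in ZD8. ZD8 thus held both the least PTGFR and the most PTGER4, and PTGFR was still the highest of the receptors there.

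PTGES, PTGFR and SLCO2A1 were lowest together in ZD8, the ovary with the lowest luteal markers. Of the 10 members, 5 were lowest there (these 3 with PTGS2 and PTGES2), beside 21.0% of the 16833 genes above 0 in all ovaries. These 3 were lowest by over 3-fold, beside 2.95% of the same genes, and PTGES2, at 2.65-fold, fell short of that mark. The 3 genes were picked for their low levels in ZD8, so the share beside them is a description and no test. Scaled to the summed luteal markers, each of the 10 members was highest in ZD8, since that sum fell there by more than any member. PTGES3, which was not low in ZD8, was at 428 per 1000 FPKM of these markers there and at 3.19 to 7.37 elsewhere. The 3 genes differed in how far they rose on this scale. PTGES per 1000 FPKM of summed luteal markers was 92.3, 61.7 and 65.6 in SLS and 77.6, 137 and 143 in ZD5, ZD7 and ZD8, so that ZD8 was the highest and ZD7 the next. PTGFR on this scale was 6.06 to 13.8 in the other 5 ovaries and 159 in ZD8, and SLCO2A1 was 3.81 to 9.91 in the other 5 and 53.3 in ZD8. The lowest of the other 5 ovaries exceeded ZD8 by 84.9 times in the summed luteal markers, 38.9 times in PTGES, 6.08 times in SLCO2A1 and 3.39 times in PTGFR. The part of luteal tissue in these levels was not tested, since 1 ovary of 6 carries the contrast.

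**Figure D4:**
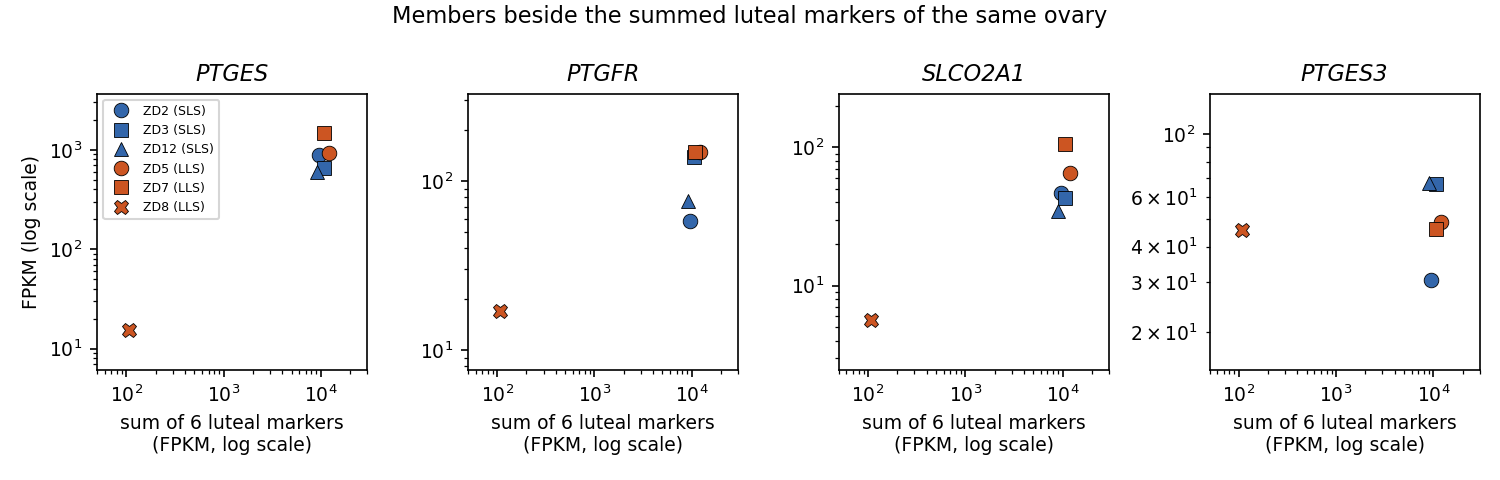
FPKM of PTGES, PTGFR, SLCO2A1 and PTGES3 (vertical, log axis, with its own range in each panel) against the sum of the 6 luteal markers in the same ovary (horizontal, log axis), with 1 point per ovary. ZD8, at 107 FPKM of luteal markers, holds the lowest PTGES, PTGFR and SLCO2A1, while its PTGES3 (45.8 FPKM) lies within the range of the other ovaries.

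The promoters of these 3 genes are shown because their levels moved together in ZD8. Each is 300 bases long, from 250 before the annotated start to 50 after it, 5′ to 3′ on the minus strand of Sscrofa11.1 (RefSeq annotation), with motif matches in capitals. They lie at chr1:269924432-269924731 (PTGES), chr6:134777018-134777317 (PTGFR) and chr13:75189611-75189910 (SLCO2A1).
PTGES: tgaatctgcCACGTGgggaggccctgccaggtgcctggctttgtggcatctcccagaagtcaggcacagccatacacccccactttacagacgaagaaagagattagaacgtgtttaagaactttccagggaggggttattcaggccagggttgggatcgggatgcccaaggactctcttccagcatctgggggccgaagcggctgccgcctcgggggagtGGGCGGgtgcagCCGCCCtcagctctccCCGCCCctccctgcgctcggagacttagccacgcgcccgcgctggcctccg
PTGFR: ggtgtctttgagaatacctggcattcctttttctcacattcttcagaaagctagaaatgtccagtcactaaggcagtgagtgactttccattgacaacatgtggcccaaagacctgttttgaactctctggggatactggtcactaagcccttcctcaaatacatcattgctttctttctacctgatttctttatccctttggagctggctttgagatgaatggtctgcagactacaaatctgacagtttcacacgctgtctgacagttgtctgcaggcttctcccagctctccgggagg
SLCO2A1: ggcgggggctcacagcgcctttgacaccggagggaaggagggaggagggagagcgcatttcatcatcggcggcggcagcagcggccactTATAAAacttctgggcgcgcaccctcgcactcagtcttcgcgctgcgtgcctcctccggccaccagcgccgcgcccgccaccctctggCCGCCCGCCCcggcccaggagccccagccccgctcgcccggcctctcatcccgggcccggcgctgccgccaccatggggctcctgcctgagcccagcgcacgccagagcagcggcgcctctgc
None of the 5 motifs searched was shared by all 3 windows. PTGES held 3 GC boxes close to its start and 1 E-box at the far end of the window. SLCO2A1 held 2 GC boxes that overlap and 1 TATA box, 161 to 156 bases before the annotated start. The PTGFR window held 0 matches. GC boxes stood in 49.0% of the 20622 promoters and TATAAA in 11.6%. GC content was 63.7% for PTGES, 45.7% for PTGFR and 74.0% for SLCO2A1. The element AAGGTCA, in 3.85% of all promoters, was found in the window of PTGES3 and of no other member, and the cAMP response element, in 2.17%, in none of the 10.

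By place, 4 members lie on chromosome 1. PTGES (chr1:269911785-269924481, 3 exons) and PTGES2 (chr1:268585725-268591356) are both on its minus strand, and PTGS1 (chr1:262456106-262482159) and PTGER2 (chr1:181993961-182009959) are on its plus strand. PTGES3 lies at chr5:22000335-22022830, PTGFR at chr6:134727334-134777067, SLCO2A1 at chr13:75108540-75189660, HPGD at chr14:15718261-15773534 and PTGER4 at chr16:25670832-25686556.

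The rest of the pathway was read from a list of 48 other genes for phospholipases, other synthases, reductases, carriers and receptors. Of these, 40 were in the table and 26 passed the filter. None was called in either direction, and none had an unadjusted p under 0.05 in limma. The log2 fold changes were above 0 for 12 and below 0 for 14, with a median of -0.01 beside 0.02 over all tested genes, and ran from -1.75 for AKR1CL1 to 0.62 for ANXA1. Without ZD8 the median was -0.23 beside -0.10, AKR1CL1 was at -0.33 and ANXA1 at 1.61, and the smallest adjusted p was 0.327, for ANXA1.

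At the head of the pathway, the cytosolic phospholipase PLA2G4A, which frees arachidonic acid, was at 5.59, 10.8 and 6.74 FPKM in SLS and 4.81, 4.31 and 7.53 FPKM in LLS. The other phospholipases tested were PLA2G12A (17.0 to 34.6 FPKM), PLA2G6 (6.05 to 9.98), PNPLA8 (4.65 to 12.5), PLA2G15 (3.50 to 7.89) and PLA2G4E (0.338 to 8.94). Their log2 fold changes ran from -0.07 for PLA2G6 to 0.31 for PLA2G12A, and from -0.67 for PLA2G4E to 0.58 for PLA2G12A without ZD8. PLA2G7, which breaks down platelet-activating factor, was at 58.2, 72.6 and 68.1 FPKM in ZD2, ZD3 and ZD12 and at 45.3, 54.5 and 16.3 FPKM in ZD5, ZD7 and ZD8. It was lower in each LLS ovary, with a limma log2 fold change of -0.92 (SE 0.44, adjusted p = 0.999), which was -0.40 (SE 0.24, adjusted p = 1) without ZD8. It was the only tested gene of the list without overlap, and PLA2G4F, under 0.5 FPKM in all ovaries, was the other gene of the list (higher in LLS). That is 1 gene of 40 in each direction, close to the 2.77% lower and 2.45% higher over all genes. With ZD8 left aside, ZD5 and ZD7 exceeded each SLS ovary for 6 of the 40 (PLA2G4F, PLA2G12A, AKR1C1, ABCC4, ANXA1 and MGLL). They were below each SLS ovary for 5 (PLA2G4A, PLA2G7, PTGR1, PTGIR and HSP90AB1). Over all genes above 0 in all ovaries these shares were 7.21% and 12.7%. ANXA1, an inhibitor of phospholipase A2 signalling that glucocorticoids induce, was at 111, 149 and 56.6 FPKM in SLS and 449, 201 and 37.7 FPKM in LLS. ZD5 and ZD7 were the highest for ANXA1 and ZD8 the lowest, as for PTGES and SLCO2A1. The same held for PLA2G12A, ABCC4 and, narrowly, MGLL.

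Of the enzymes that can lead to prostaglandin F, AKR1CL1 and AKR1B1 were abundant in the other 5 ovaries and lowest in ZD8. AKR1CL1, an aldo-keto reductase of the family that holds prostaglandin F synthases and steroid reductases, was at 1872, 1644 and 796 FPKM in SLS and 903, 1272 and 54.7 FPKM in LLS. It exceeded PTGES in each ovary but ZD5 and ZD7. Its neighbour AKR1C1 on chromosome 10 is a related copy, at 0.338 to 2.32 FPKM, and how reads matching both were counted is not given in the sources used here. AKR1B1, an aldose reductase that also makes prostaglandin F, was at 108, 75.0 and 109 FPKM in SLS and 86.0, 124 and 31.7 FPKM in LLS. FAM213B (4.75 to 12.2 FPKM) and CBR3 (1.56 to 5.46 FPKM), of the same step, were lower and highest in ZD8, and CBR1 was at 0 to 0.404 FPKM.

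The synthases of prostaglandins D and I were highest in ZD8. PTGDS, the prostaglandin D synthase, was at 50.4, 32.4 and 189 FPKM in SLS and 20.5, 34.9 and 492 FPKM in LLS (log2 fold change 0.07, and -1.31 without ZD8). PTGIS, the prostacyclin synthase, was at 14.1 to 21.4 FPKM in the other 5 ovaries and at 31.1 FPKM in ZD8. Of the 40 measured genes of the list, 16 were highest and 9 lowest in ZD8, beside 51.5% and 21.0% of the 16833 genes above 0 in all ovaries. The efflux carrier ABCC4 was at 8.08, 10.5 and 8.74 FPKM in SLS and 17.5, 13.9 and 4.05 FPKM in LLS, again with ZD5 and ZD7 above SLS and ZD8 below (log2 fold change 0.15, and 0.73 without ZD8). The reductases PTGR1, PTGR2 and ZADH2, which act on the products of HPGD, had log2 fold changes of -0.18, 0.02 and 0.06, and of -0.43, 0.02 and 0.15 without ZD8.

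The remaining receptors were weak. PTGER1, PTGER3, PTGDR, PTGDR2 and PTGIR, none of them tested, for prostaglandins E, D and I, stayed below 1 FPKM in the other 5 ovaries, and in ZD8 PTGER3 was at 1.44 and PTGDR2 at 1.09 FPKM. The thromboxane receptor TBXA2R was at 2.13 to 7.32 FPKM. Each receptor of the list was below PTGFR in each ovary. PTGFRN, a membrane protein that binds the PTGFR protein, was at 24.0 to 64.0 FPKM, with no such low value in ZD8 (35.5 FPKM). HSP90AA1 and HSP90AB1, the chaperones that PTGES3 serves, were at 260 to 476 FPKM and 276 to 439 FPKM. The kinase subunit CSNK2A1 was at 35.4 to 53.8 FPKM. MGLL, DAGLA and FAAH, which make or break down endocannabinoids, were at 8.97 to 22.4, 1.83 to 3.88 and 1.62 to 5.11 FPKM.

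**Figure D5:**
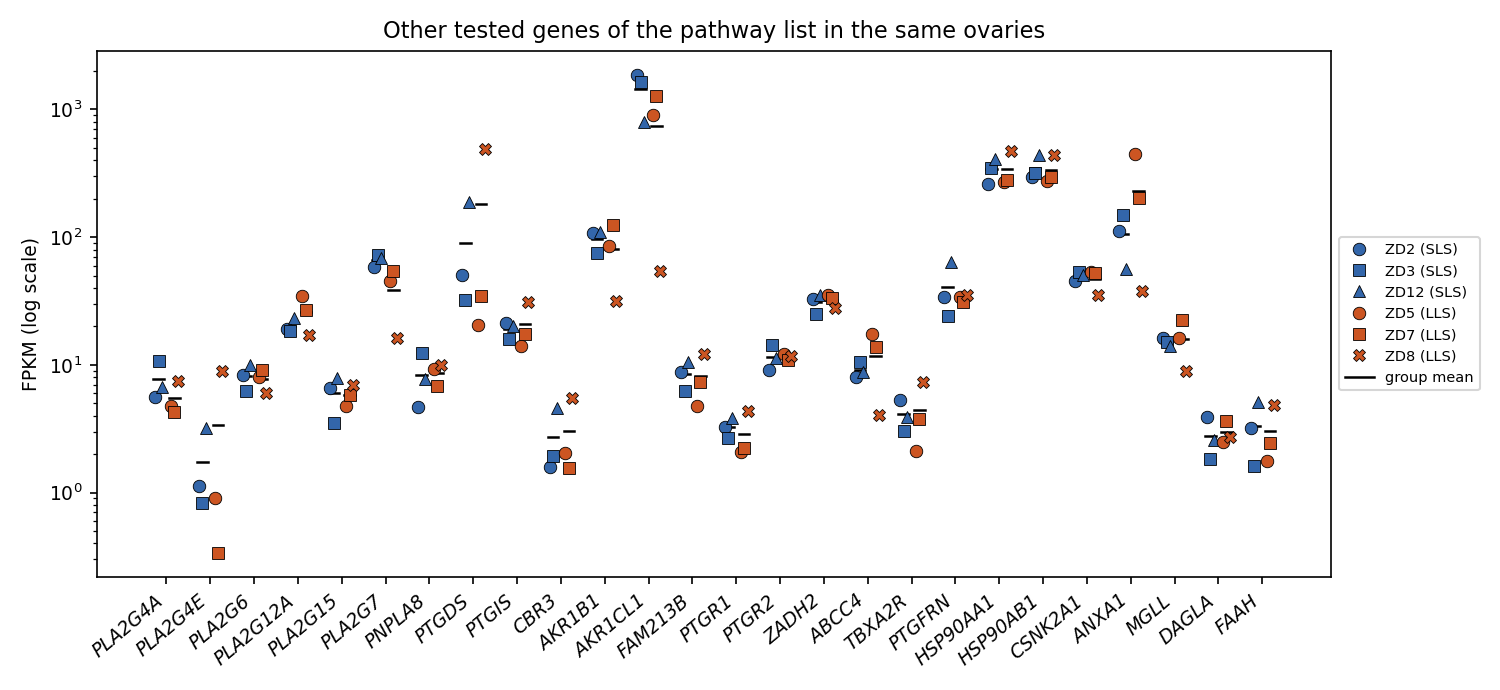
FPKM of the 26 tested genes of the pathway list on a log axis, with 1 point per ovary (blue for SLS, orange for LLS, crosses for ZD8) and black lines at the group means. ZD8 lies lowest for AKR1CL1, AKR1B1, PLA2G7, ABCC4 and ANXA1 and highest for PTGDS and PTGIS, and only PLA2G7 shows no overlap between the groups.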

How the data were processed

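The gene and miRNA tables of 3 SLS and 3 LLS ovaries were used, and the groups follow the labels. For genes, the authors aligned trimmed reads to Sscrofa11.1 with HISAT2 and deposited FPKM values. The deposited miRNA table holds RPM, reads scaled to the library total, which the authors named TPM, and the submitters' processing notes list BWA beside HISAT2. The columns of both tables carry the names of the same ovaries. The labels list 2 samples for each ovary, and which of them gave a miRNA column was taken from the column's name alone, which leaves the ovary and group as they are. The program that counted genes is not given in the sources used here. All 12 columns of values were used.

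What was computed used R 4.3.3, limma 3.58.1, edgeR 4.0.16, DESeq2 1.42.0, Python 3.11.15 and scipy 1.17.1. The main test was limma with a variance trend on log2(value + 1), for features of at least 1 FPKM or 1 RPM in at least 3 libraries, with Benjamini-Hochberg adjustment over 12260 genes and 353 miRNAs. A call needed an adjusted p under 0.05 and a log2 fold change over 1 in either direction, the study's thresholds. The p-values weigh the difference between the groups against the spread between ovaries. Dividing out the longest transcript length and library size gave back whole reads (within 0.001) for all 10 members and for 99.6% of genes above 0, 23477 of 23564. These served edgeR and DESeq2, the latter named by the study for mRNA. The miRNA values gave whole reads (within 0.01) for 2618 of 2618. Poisson intervals use these reads. A value of 3 reads on a kilobase of transcript is 0.0493 to 0.0930 FPKM. The fits were run on simulated reads with known changes. The simulation held no ovary as far from the others as ZD8, so it does not show how the fits treat one.

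By rule, the genes named were all the members, the tested genes of the pathway list, marker lists that moved with a member and the 5 fixed miRNAs. PLA2G4F, AKR1C1, CBR1 and 5 receptors of the list were not tested and were named after their values were seen. The members and lists were chosen with earlier results of these data known. Alternatives covered the pseudocount, filter, scaling, variance trend, array weights, test and threshold, and leaving out each ovary. Sequences were read from the RefSeq Sscrofa11.1 assembly and the miRNA table. Circular RNAs were not analysed here.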

Additional observations from a re-analysis of the deposited data

How the results depend on the processing

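The main gene count of 0 became 20 with DESeq2 on recovered reads (11 higher, 9 lower) and 13 with array weights (6 higher, 7 lower), and lay between 0 and 21 when single ovaries were left out (21 without ZD8, 0 without any other). It was 0 under the other alternatives, edgeR included (220 genes at an unadjusted p under 0.05). PTGES turned to 0.27 in DESeq2 and in edgeR and to 0.58 with array weights, with -2.51 to 0.74 over the ovaries left out. PTGFR turned to 0.28, 0.28 and 0.86 (left out -0.73 to 0.79), and SLCO2A1 to 0.59, 0.59 and 0.94 (left out -1.0 to 1.0). The positive ends for these 3 genes came without ZD8, and PTGFR was also above 0 without ZD3 (0.13). PTGES3 ran from -0.50 to 0.056 over the ovaries left out, miR-101 from -0.24 to 0.59, miR-16 from -0.42 to 0.053, miR-199a-3p from -0.48 to 0.56, miR-26a from -0.29 to 0.57 and miR-26b-5p from -0.48 to 0.51. PTGS2 kept its direction in 16 of 16 alternatives (-1.25 to -0.46) and PTGES2 in 17 of 17. The groups did not overlap for PTGS2, so leaving out an ovary could not turn its direction, and those fits add nothing to that. A filter of 5 FPKM leaves PTGS2 out. The difference of mean log2 values of HPGD was 0.27 and moved to 0.67 and 0.41 with pseudocounts of 0.1 and 0.5 and to 0.46 with TPM scaling. That of PTGER4 ran from -0.053 to 0.30 over the ovaries left out. PTGS1 (0.25) ran from 0.042, without ZD7, to 0.39 over the ovaries left out and reached 0.53 with a pseudocount of 0.1, and PTGER2 (0.16) ran from 0.098 to 0.24 and reached 0.38. The miRNA count was 0 in 9 of 9 alternatives. The cause of these changes was not tested beyond the ovary left out. No paired analysis was possible because the replicate numbers were given in accession order and pair no samples. With 3 ovaries a group the intervals are wide, and HPGD, PTGS1, PTGER2 and PTGER4 rest on 37 to 308 reads per ovary.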
